A study of Mus musculus with 4 samples.

Results

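Amino acid transporters are membrane proteins that move amino acids, and some close relatives of amino acids, across the cell surface and across organelle membranes. The transcripts described here are those of 7 solute carrier families, Slc1a, Slc3a, Slc6a, Slc7a, Slc36a, Slc38a and Slc43a, taken as every gene probe whose array name begins with one of these family symbols followed by a number. The rule gave 55 genes on 95 probes, of 28786 genes on 41174 probes in all, and it used no measured value. They were measured in livers of C57BL/6J mice, an inbred laboratory strain, from mothers under food deprivation (FD), control mothers, fetuses labelled FD and control fetuses, on 4 two-colour Agilent arrays of 1 slide. RNA of 5 to 10 biological replicates was pooled for each condition, per the design text. The same text says that this pooled RNA was hybridised in both dye orientations, while the sample titles number the pooled samples 1 and 2 along with the orientation. Whether the arrays of a comparison carried the same pools or separate ones is therefore not settled. FD RNA was in Cy5 on array 1 and in Cy3 on array 2. The labels describe chow and tap water given freely in housing, and the sources used here do not give the length of the deprivation, the stage of gestation or fetal sex.

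In the liver these carriers feed amino acids into gluconeogenesis, the urea cycle, bile acid conjugation and protein synthesis. Members of the Slc1a family carry glutamate or exchange small neutral amino acids, Slc38a members carry glutamine and alanine with sodium, and Slc6a members carry glycine, taurine, betaine, creatine or monoamines with sodium and chloride. Slc7a members are either cationic amino acid transporters or light chains that work only when joined to an Slc3a heavy chain. Slc36a members move small amino acids together with protons, and Slc43a1 and Slc43a2 carry large neutral amino acids.

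A gene counted as measured in a comparison where its FD or its control channel was well above background on both arrays, by the scanner software's own call, and the brightest measured probe stood for the gene. By this filter 30 of the 55 genes were measured in the mother and 39 in the fetus, with 27 in both, 3 in the mother alone, 12 in the fetus alone and 13 in neither. The 13 included Slc1a1, Slc1a7, Slc6a2, Slc6a5, Slc6a11, Slc6a15, Slc6a18, Slc6a20b, Slc7a11, Slc7a12, Slc7a13 and Slc7a14. Across all arrays and dyes 53.2% to 69.7% of gene spots were well above background and none was saturated. Because the arrays of a comparison may carry the same pools, they were counted as 1 replicate, and no significance test was made. The rule for a call asked for a 2-fold mean over both arrays, with 1.5-fold or more on either array alone and no disagreement in direction. Across all measured genes, the SD of a log2 ratio on one array, from the disagreement between the arrays, was 0.162 in the mother and 0.147 in the fetus. If the arrays carry the same pools this is technical error alone, and if they carry separate pools it also holds the spread between pools.

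In maternal liver, 1 of 30 measured transporters rose under FD and 2 fell, while 1.54% and 1.87% of all measured genes were called higher and lower. The median log2 ratio over the 30 was 0.02, against -0.01 over all 16063 genes. The cationic amino acid transporter Slc7a2 rose, the proton-coupled transporter Slc36a1 fell and the taurine transporter Slc6a6 fell. In fetal liver, 0 of 39 measured transporters passed the rule in either direction, while 0.428% of all genes were called higher and 0.267% lower, and the median was 0.00. With median centring of each array in place of loess, one dye orientation of each of the 3 maternal genes fell short of 1.5-fold and 0 passed. In the scanner software's processed signals 4 were higher and 3 lower in FD mothers, beside 4.08% and 5.04% of all genes in those signals. In FD fetuses 0 were higher and 2 lower in them, Slc7a9 and Slc7a10, beside 1.25% and 0.962% of all genes. Both probes were dim, with fetal log2 levels of 6.65 to 7.08 for Slc7a9 and 6.49 to 6.77 for Slc7a10 in the main processing. The FD channel of Slc7a10 was well above background on 1 fetal array only.

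**Figure D1:**
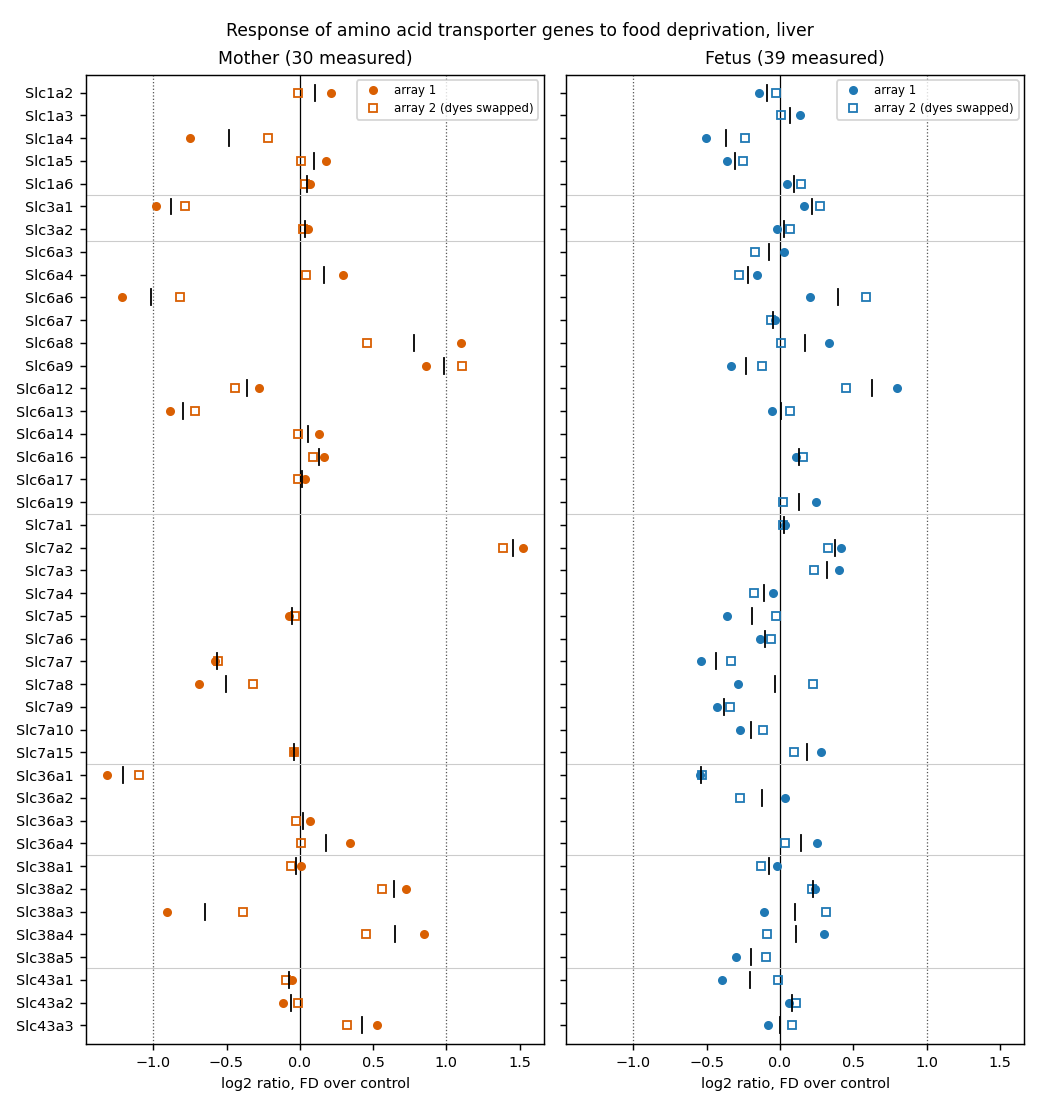
Log2 ratio of FD over control liver RNA on the horizontal axis for the 42 transporter genes measured in either response, grouped by family, with mothers on the left and fetuses on the right. Filled circles are array 1, open squares array 2 with dyes swapped, short bars their mean and dotted lines 2-fold. Maternal means reach 1.46 for Slc7a2 and -1.21 for Slc36a1, and fetal means stay between -0.54 and 0.63.

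Slc7a2 encodes a carrier of arginine, lysine and ornithine that hepatocytes use for uptake of cationic amino acids. Its log2 level was 10.69 and 10.54 on the arrays in FD mothers, against 9.17 and 9.16 in control mothers. Both FD values lay above both control values, and the ratios of 1.53 and 1.39 gave a mean 2.74-fold rise. In fetuses the levels were 8.98 and 9.14 under FD and 8.57 and 8.81 in control, with ratios of 0.41 and 0.33 that did not reach the rule. A single probe reads this gene, on the plus strand of chromosome 8 in mouse genome build mm7, and its leading bases are shown because the only maternal rise in these families rests on it.
Slc7a2 probe, chr8:39701203-39701262, first 30 of 60 bases: ttttttactgtggacaaaaaagacacagat

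The other cationic carriers gave no maternal ratio. Slc7a1, the carrier found in most cell types other than hepatocytes, had fetal ratios of 0.03 and 0.02. Slc7a3 had fetal ratios of 0.40 and 0.23, and Slc7a4, a relative in the same branch, had -0.04 and -0.17.

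Slc36a1 encodes a carrier that exports small neutral amino acids with protons from lysosomes and is also found at the surface of gut cells. Its log2 level was 7.99 and 8.29 in FD mothers, against 9.31 and 9.38 in control mothers, a mean 2.31-fold fall with ratios of -1.32 and -1.09. In fetuses it was 7.89 and 8.11 under FD and 8.44 and 8.64 in control. The fetal ratios of -0.55 and -0.53 were the lowest mean among the 39 fetal members, and the FD values lay below the control values in both mothers and fetuses. These values come from one of its 2 probes. The other was well above background in no channel of any array, and its ratios were -0.04 and -0.02 in mothers and 0.10 and 0.00 in fetuses. Both are placed on the plus strand of chromosome 11 in mm7 by the array annotation, and the probe that gave the fall lies downstream. Their leading bases are shown because the gene's call rests on one of them.
Slc36a1 probe with the fall, chr11:55192788-55192847, first 30 of 60 bases: atcgtaaagctgtcagtatatgttgaaatc
Slc36a1 probe without signal, chr11:55181808-55182779, first 30 of 60 bases: gtggttctaccccttgagaacaaaatgaag
The second spans 972 bases of the genome with 60 bases of probe, so it is split over the genome. The probe with the fall is assigned to the gene through a cDNA clone, and whether its stretch lies in a transcript of Slc36a1 was not checked, so the fall is that of this probe.

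Slc6a6, which carries taurine, the amino acid used for bile acid conjugation in mouse liver, had log2 levels of 10.53 and 10.68 in FD mothers and 11.74 and 11.49 in control mothers. The ratios were -1.21 and -0.82, a mean 2.02-fold fall, and this was the member just inside the rule. In fetuses the levels were 11.34 and 11.58 under FD and 11.13 and 11.00 in control, so FD values were the higher ones there, with ratios of 0.20 and 0.58. The dimmer second probe gave the same directions with smaller size, -0.46 and -0.23 in mothers and 0.28 and 0.26 in fetuses. With the mean of both probes in place of the brighter one, the maternal log2 ratio was -0.68 and the gene was no longer called, and on array 2 alone it was -0.82, also short of 2-fold.
Slc6a6 brighter probe, chr6:91841129-91841188, first 30 of 60 bases: ggttttgcctccttcagaaatatgtctggc
Slc6a6 dimmer probe, chr6:91832302-91832804, first 30 of 60 bases: tttgaatgttttgttattgcctggatatat
Both lie on the plus strand in mm7, and the dimmer one spans 503 bases of the genome.

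**Figure D2:**
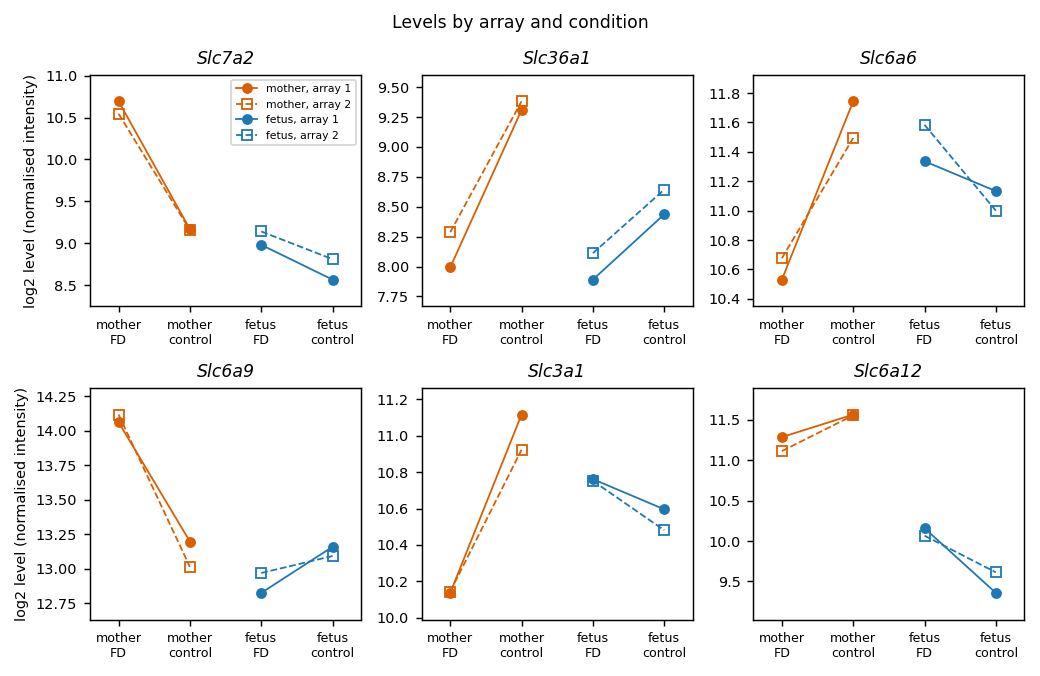
Log2 level (normalised intensity, vertical axis with its own range in each panel) of 6 transporters on each array, with FD left of control and mothers left of fetuses. Lines join FD and control on the same array, filled circles are array 1 and open squares array 2. For Slc6a6, Slc3a1 and Slc6a12 the maternal lines run up to control and the fetal lines run down to it.

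Slc6a9 encodes the glycine transporter GlyT1. Its log2 level was 14.06 and 14.12 in FD mothers and 13.20 and 13.01 in control mothers, with ratios of 0.86 and 1.10. The mean of 0.98 lay just outside the 2-fold rule. In fetuses the level was 12.83 and 12.97 under FD and 13.16 and 13.09 in control, with ratios of -0.33 and -0.12. On array 2 alone, in the scanner software's processed signals and in the deposited series table, the maternal value passed 2-fold, at 1.10, 1.02 and 1.03.

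None of the other Slc6a carriers passed the rule. Slc6a13, a carrier of GABA and taurine found in periportal hepatocytes, had maternal ratios of -0.88 and -0.72 on its brighter probe and -0.86 and -0.92 on the other. Its fetal ratios were -0.05 and 0.07. Slc6a12, the betaine and GABA carrier, had maternal ratios of -0.28 and -0.44 and fetal ratios of 0.80 and 0.45. The fetal log2 levels of Slc6a12 were 10.16 and 10.07 under FD and 9.36 and 9.61 in control, and its mean of 0.63 was the highest of the 39. Slc6a8, which carries creatine, had maternal ratios of 1.10 and 0.46, so the arrays differed by more than their usual error. Slc6a4, the serotonin transporter, had 0.29 and 0.04 in mothers and -0.16 and -0.28 in fetuses. Both arrays thus pointed one way in mothers and the other in fetuses, with means below 1.5-fold. In the scanner software's processed signals the maternal ratios of Slc6a4 were 1.96 and 0.83, with a mean of 1.40. The difference between mother and fetus averaged 1.82 there, and both values passed the rule. With the main processing at offset 0, neither passed. The maternal control of this probe was well above background on 1 array. The measured members of these families not named elsewhere, Slc1a3, Slc1a6, Slc6a3, Slc6a7, Slc6a14, Slc6a16, Slc6a17, Slc6a19, Slc7a15 and Slc36a3, had mean ratios between -0.07 and 0.19 in mothers and fetuses alike.

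Slc3a1 encodes the heavy chain rBAT, the partner of Slc7a9 in uptake of cystine and cationic amino acids. Its log2 level was 10.14 on both arrays in FD mothers, against 11.12 and 10.92 in control mothers. The ratios were -0.98 and -0.78, which left it outside the rule on the lower side. In fetuses it was 10.76 and 10.75 under FD and 10.60 and 10.48 in control. Slc7a9, its light chain, had fetal ratios of -0.43 and -0.34 and was not measured in the mother. Slc3a2, the heavy chain 4F2hc that carries most other light chains, had maternal ratios of 0.05 and 0.02 and fetal ratios of -0.02 and 0.07 on a dim probe. Its other probe was left out on maternal array 2, where the spot was marked as an outlier, and gave 0.12 on maternal array 1 and -0.14 and 0.15 in fetuses.

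Among the light chains that join 4F2hc, Slc7a7 and Slc7a8 had negative maternal ratios. Slc7a7, which exports cationic amino acids, had maternal ratios of -0.58 and -0.56 and fetal ratios of -0.54 and -0.34. Slc7a8, a carrier of neutral amino acids, had -0.69 and -0.32 in mothers and -0.29 and 0.22 in fetuses. Slc7a5, the large neutral amino acid carrier LAT1, had -0.08 and -0.03 in mothers and -0.36 and -0.03 in fetuses. Its maternal log2 levels were dim, at 6.88 to 6.96, and its maternal FD channel was well above background on 1 array only. Slc7a6 had fetal ratios of -0.14 and -0.06, and the D-serine and small neutral carrier Slc7a10 had -0.27 and -0.11. Slc7a11, the cystine and glutamate exchanger, was measured on none of its 4 probes.

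The Slc38a family divided by direction in mothers, with none past the rule. Slc38a2, a sodium-coupled carrier of small neutral amino acids known to respond to amino acid supply in cultured cells, had maternal ratios of 0.73 and 0.56 and fetal ratios of 0.24 and 0.22. Its dimmer probes gave maternal means of 0.34 and 0.19 and fetal means of -0.06 and -0.10. A further probe gave 0.62 on maternal array 2 alone and -0.12 and 0.28 in fetuses. The positive fetal ratios on both arrays are thus those of the brightest probe only. Slc38a4, a liver-enriched carrier of the same kind, had maternal ratios of 0.84 and 0.45, and 0.49 and 0.97 on its other probe. Slc38a3, the glutamine carrier SNAT3, had -0.90 and -0.39 in mothers and -0.11 and 0.31 in fetuses. The Slc38a3 arrays thus agreed in sign in mothers only. Slc38a1 had 0.01 and -0.06 in mothers and -0.02 and -0.13 in fetuses. Slc38a5, another glutamine carrier, had fetal ratios of -0.30 and -0.10 and was not measured in the mother. Slc38a9, a lysosomal arginine sensor, stands on the array under an older name and so is no member. One of its probes gave -0.11 and -0.08 in mothers and 0.54 and 0.54 in fetuses, the other -0.16 and 0.00 in mothers and 0.20 and 0.15 in fetuses. Together with Slc38a9, 6 genes of these families carried older names.

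No member of the Slc1a or Slc43a family reached 1.5-fold on its mean, although in the scanner software's processed signals Slc1a4 was lower in FD mothers by the rule. Slc1a4, an exchanger of alanine, serine and cysteine, had -0.75 and -0.22 in mothers and -0.50 and -0.24 in fetuses. In the software's signals its maternal ratios were -2.37 and -1.83, and the mean was -2.10 there and -2.11 in the deposited series table. Its second probe gave -0.69 and -0.19 in mothers and -0.52 and -0.46 in fetuses. Slc1a5, an exchanger of glutamine and other neutral amino acids, had 0.18 and 0.01 in mothers and -0.36 and -0.25 in fetuses. The negative sign of Slc1a4 was thus shared by both probes on every array, while the fetal and maternal signs of Slc1a5 were opposite. Slc1a2, the glutamate transporter GLT-1, had 0.21 and -0.01 in mothers and -0.14 and -0.03 in fetuses. Slc43a1 had -0.06 and -0.09 in mothers and -0.39 and -0.01 in fetuses, and Slc43a2 had -0.11 and -0.01 in mothers and 0.06 and 0.11 in fetuses. Slc43a3, a family member that carries purine nucleobases, had 0.52 and 0.33 in mothers and -0.08 and 0.08 in fetuses. Slc36a4, a carrier of proline and tryptophan, had 0.35 and 0.01 in mothers and 0.25 and 0.03 in fetuses. Slc36a2 had fetal ratios of 0.03 and -0.27, so its arrays differed in sign.

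At the lower threshold of 1.5-fold on the mean with both arrays in the same direction, 5 of 30 transporters were higher in FD mothers and 5 were lower, beside 4.33% and 5.56% of all measured genes. The 5 higher were Slc7a2, Slc6a9, Slc6a8, Slc38a4 and Slc38a2. The 5 lower were Slc36a1, Slc6a6, Slc3a1, Slc6a13 and Slc38a3. By the same threshold 1 of 39 was higher in FD fetuses, Slc6a12, and 0 were lower, beside 1.72% and 0.906% of all genes. By family, the maternal counts of members past 2-fold were 1 of 5 for Slc7a, 1 of 9 for Slc6a and 1 of 3 for Slc36a. They were 0 of 4 for Slc1a, 0 of 2 for Slc3a, 0 of 4 for Slc38a and 0 of 3 for Slc43a. Past 2-fold, 1.54% of all genes were higher and 1.87% lower in mothers.

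The response of the mother was set against that of the fetus for the 27 genes measured in both, by subtracting the fetal from the maternal log2 ratio on arrays of equal dye orientation. The rule called 2 transporters higher and 2 lower, beside 1.23% and 1.76% of all 15598 genes. Slc6a9 gave differences of 1.20 and 1.23, and Slc7a2 gave 1.11 and 1.06. Slc6a6 gave -1.42 and -1.40, and Slc3a1 gave -1.15 and -1.05. Just outside lay Slc6a12 at -1.08 and -0.90. Subtracting equal orientations brought the arrays closer together, with an SD of 0.130 over all genes. These differences are between pools and were not tested. With median centring in place of loess, the difference of Slc6a9 was 0.87 and that of Slc7a2 was 0.91, both short of 2-fold.

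**Figure D3:**
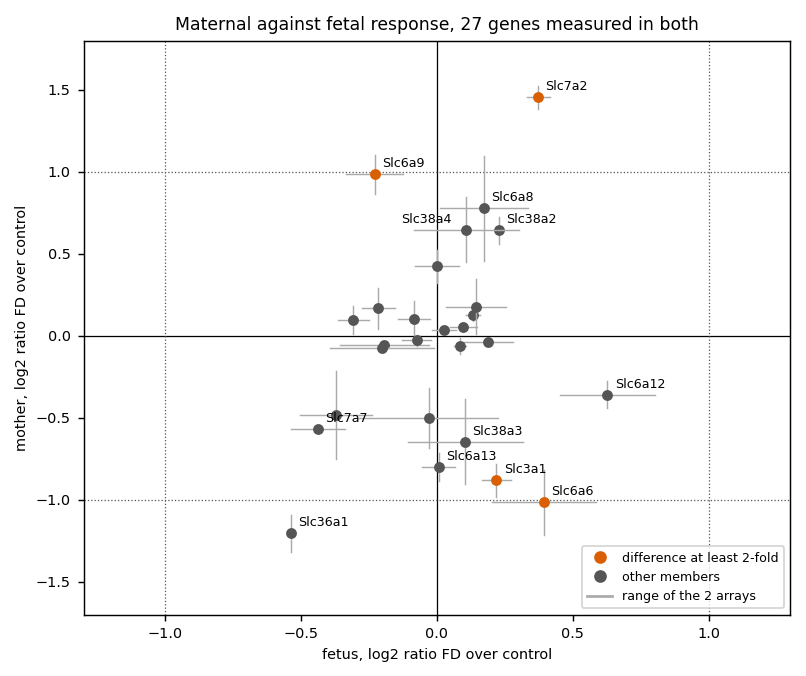
Mean log2 ratio of FD over control in the mother (vertical axis) against the fetus (horizontal axis) for the 27 transporters measured in both. Grey bars span the 2 arrays, dotted lines mark 2-fold, and the 4 orange points are the genes whose responses differed by the 2-fold rule. Slc7a2 and Slc6a9 lie at the top, Slc6a6 and Slc3a1 at the lower right.

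In control animals the mean log2 difference between mother and fetus ran from -5.15 to 5.03 over the transporters, a wider range than their responses to FD. Of 38 genes measured in control liver, 4 were higher in the mother and 9 lower, beside 9.06% and 10.3% of all genes. The median log2 difference, mother minus fetus, was -0.22 over the 38 transporters and 0.02 over all 18085 genes. Of the 38, 13 had a maternal control well above background on at most 1 array and entered through the fetal channel. Without the filter the median was 0.03 over all 55 transporters and 0.01 over all genes, so the sign of the transporters' median rests on the filter. The control channel was compared within each dye after quantile normalisation of average intensities, and the SD of one such difference over all genes was 0.219. Mother and fetus were on different arrays of the slide, so the array and the animal cannot be told apart here.

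Slc1a2 was the most strongly mother-enriched member. Its control log2 level was 11.73 and 11.81 in mothers, against 6.72 and 6.76 in fetuses, with differences of 5.01 and 5.05 and a mean of 32.6-fold. A second probe of the gene gave 2.93 and 2.92. In adult liver this carrier is known from the hepatocytes around the central vein, which make glutamine. Slc38a3, which carries glutamine in hepatocytes, was higher in the mother by 2.40 and 1.87, a mean of 4.40-fold. Slc6a12 was higher by 2.21 and 1.94, and Slc6a13 by 1.28 and 1.01.

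The 9 transporters with the lower maternal level included Slc38a5, with 6.57 and 6.62 in mothers against 11.79 and 11.69 in fetuses. Its maternal control was well above background on only 1 array, so the differences of -5.22 and -5.07 are set against a signal near the floor and their size is not exact. Slc36a2, a carrier of glycine, alanine and proline, was not well above background in control mothers on either array, against fetal levels of 11.13 and 11.14. It was therefore at least 24.0-fold lower in mothers. Its dimmer probe gave a difference of -0.54, so the probes of this gene differed in size. Slc1a5 had 7.29 on both arrays in mothers and 11.81 and 11.74 in fetuses, a mean of 22.4-fold. Slc7a5 was lower in mothers by a mean of 5.89-fold, Slc38a1 by 5.61-fold and Slc43a1 by 5.19-fold. Slc43a3 was lower by 3.39-fold, Slc1a4 by 3.01-fold and the serotonin transporter Slc6a4 by 2.13-fold, the last with the maternal control well above background on 1 array. Among the 6 probes of Slc38a1, 4 gave -2.49, -2.05, -1.27 and -1.05, and the other two gave -0.16 and 0.19.

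**Figure D4:**
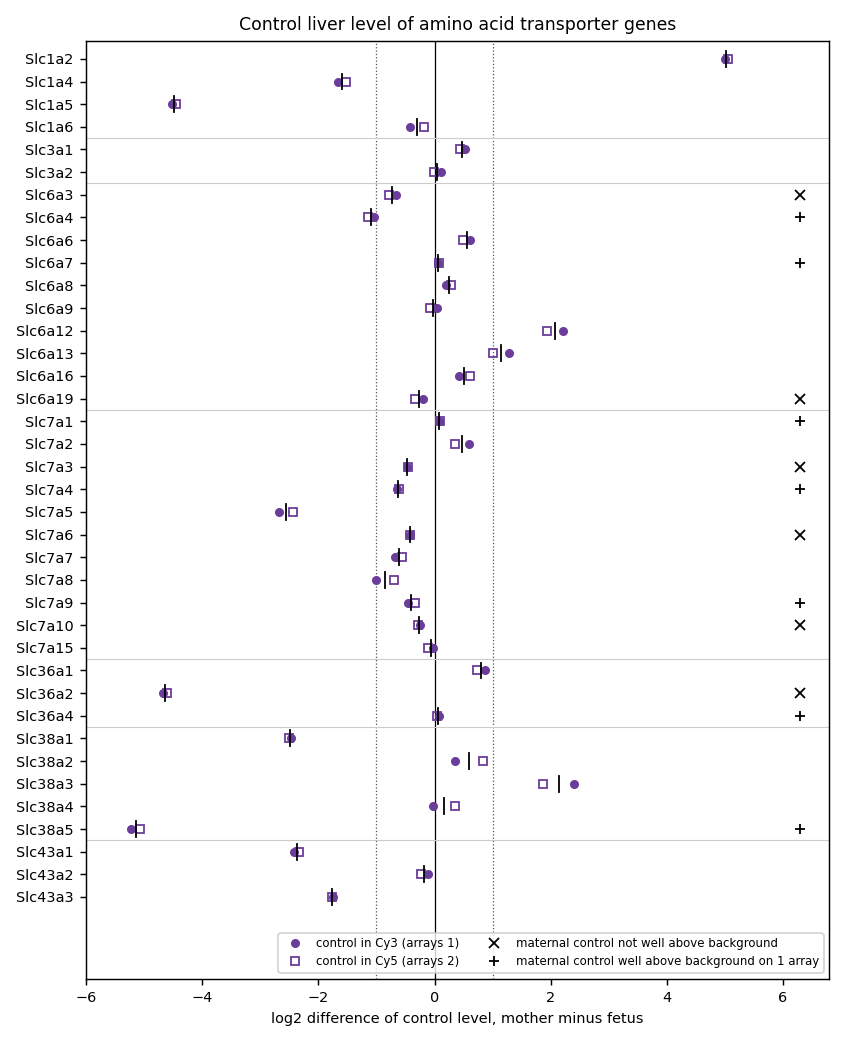
Log2 difference of the control liver level, mother minus fetus, for the 38 transporters measured in control liver, by family. Filled circles have control RNA in Cy3, open squares in Cy5, and short bars are their mean, with dotted lines at 2-fold. Crosses at the right mark genes whose maternal control was not well above background, and plus signs those with 1 array above it. Slc1a2 stands alone at 5.03, and Slc38a5, Slc36a2 and Slc1a5 lie below -4.

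Of the transporters past 1.5-fold in FD mothers, Slc6a13 and Slc38a3 were also called in control level and the rest were not. Slc6a9 differed by -0.02 between mother and fetus, Slc38a4 by 0.17, Slc7a2 by 0.47, Slc3a1 by 0.48 and Slc6a6 by 0.55. Slc36a1 at 0.81 and Slc7a8 at -0.85 lay just outside the rule. Slc7a7 gave -0.61 and Slc43a2 gave -0.17. Slc38a2 gave 0.59 on its brightest probe, but -0.11 and 0.10 on dimmer probes and -0.05 on a probe read with control in Cy5 only. Slc3a2 gave 0.05 on a dim probe, and its other probe gave -0.68 with control in Cy3, the only orientation available. Of the genes whose maternal control was not well above background, Slc6a3 was at least 1.65-fold lower in mothers. The bounds for Slc6a19, Slc7a10, Slc7a6 and Slc7a3 lay between 1.16-fold and 1.36-fold.

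Markers of cell types were compared in control liver by the same rule, where 9.06% of all genes were higher in the mother and 10.3% lower. All 13 measured erythroid markers were lower in the mother (median -3.59), and their summed intensity was 13896 to 15234 in control mothers against 169239 to 183478 in control fetuses. Of them 5 were not well above background in mothers, Epb42, Eraf and Hba-x among them. Lymphocyte and granulocyte markers were lower in 4 of 7, with summed intensities of 1708 to 1725 in control mothers and 81368 to 85991 in control fetuses. Of 11 hepatocyte markers 2, Otc and Hnf4a, were higher in the mother, and all 11 were well above background in both. Of 10 Kupffer cell markers Cd163, Vsig4 and Folr2 were higher in the mother and Marco was lower. Lower in the mother were also 2 of 7 stellate markers (Col1a1 and Col3a1), 1 of 6 endothelial markers (Lyve1), 1 of 5 bile duct markers (Krt7) and 1 of 4 pancreatic markers (Cela1). Fewer cells of a type and less RNA per cell cannot be told apart in whole liver, and the part of cell makeup in the transporter levels was not tested.

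Within the FD comparisons, 1.54% of all genes were higher and 1.87% lower in mothers, and 0.428% and 0.267% in fetuses. Kupffer cell markers were lower in mothers for 4 of 10 (Adgre1, Aif1, Cd5l and Folr2), with a median of -0.72. Their summed intensity was 13721 to 14581 in FD mothers and 22784 to 24092 in control mothers, against 31262 to 33241 in FD fetuses and 32360 to 34405 in control fetuses. All 10 were well above background in mothers and in fetuses. Of the hepatocyte markers Ttr and Otc fell in FD mothers, at -1.83 and -1.04, 2 of 11 with a median of 0.14. Of the stellate markers 1 of 7, Col3a1, fell at -1.57, and 1 of 6 endothelial markers, Lyve1, rose at 1.01. Erythroid markers passed the rule in 0 of 8 in mothers and 0 of 13 in fetuses, with medians of -0.08 and -0.21. The part of any of these in the transporter ratios was not tested.

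Other carriers of amino acids, outside the 7 families, gave 1 of 15 higher and 0 lower in FD mothers and 0 of 16 in FD fetuses. Their medians were 0.08 and 0.09. Among all genes 1.54% were higher and 1.87% lower in mothers, and 0.428% and 0.267% in fetuses. The maternal gene was Slc25a15, the mitochondrial ornithine carrier of the urea cycle, at 1.18 and 0.98. Slc16a10, an exporter of aromatic amino acids, gave 0.57 and 0.55 in mothers and -0.72 and -0.51 in fetuses. Slc16a10 was the only 1 of 15 called in the difference between them, beside 1.23% of all genes called higher and 1.76% lower. In control liver Slc25a15, the glutamate carrier Slc17a8 and the lysosomal sialic acid carrier Slc17a5 were higher in mothers, of 16 measured. Slc25a38, a mitochondrial glycine carrier, was lower. The shares of all genes were 9.06% higher and 10.3% lower. Of the partner proteins that modulate transporters, 0 of 2 in mothers and 0 of 3 in fetuses passed the rule. Arl6ip5, a binding partner of Slc1a1 known from rat, gave 0.13 and 0.07 in mothers and 0.72 and 0.73 in fetuses.

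Amino acid shortage is known to act on transporter genes through the kinase Gcn2 and the factor ATF4, which binds response elements with the core letters TGATGNAA. Of 19 genes of this response, 3 of 18 measured rose in FD mothers and 2 of 19 in FD fetuses, and 0 fell in either. Among all measured genes 1.54% rose and 1.87% fell in mothers, and 0.428% rose and 0.267% fell in fetuses. Cebpb, a partner factor, gave 1.08 and 1.13 in mothers, and the stress sensor gene Sesn2 gave 1.17 and 1.21. Ddit4, an inhibitor of mTORC1, gave 0.97 and 1.06 in mothers and 1.23 and 1.42 in fetuses, and Trib3, an ATF4 target, gave 0.92 and 0.73 in mothers and 1.43 and 1.52 in fetuses. Asns, asparagine synthetase and a standard target of the response, gave 0.50 and 0.20 in mothers and 0.10 and 0.06 in fetuses. The list's medians were -0.01 in mothers and -0.03 in fetuses. Genes of amino acid sensing by mTORC1 passed the rule in 0 of 22 in mothers and 0 of 23 in fetuses. In control liver 5 of 19 response genes were lower in the mother, Asns, Psat1, Phgdh, Mthfd2 and Psph, and Chac1 was higher. The shares of all genes there were 10.3% lower and 9.06% higher.

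The letters TGATGNAA were searched on both strands in the RefSeq promoter windows (assembly GRCm38.p6, 250 bases before to 50 after a start site). A window was found for 37 of the 55 genes, and 3 of the 37 held the letters (8.11%), beside 1219 of 27025 genes in all (4.51%). A gene counted if any of its windows held them. The 37 genes had 58 windows and the 27025 had 32851, so members had more windows per gene and the shares are not like for like. Slc7a2 and Slc6a6 were among the genes without a window and were not searched. The window of Slc36a1 did not hold the letters. The 3 genes were Slc1a4, Slc7a7 and Slc7a11, and their windows are shown, with the matches in capitals, because they let the letters be set beside the ratios above.
Slc1a4, chr11:20332664-20332963, minus strand: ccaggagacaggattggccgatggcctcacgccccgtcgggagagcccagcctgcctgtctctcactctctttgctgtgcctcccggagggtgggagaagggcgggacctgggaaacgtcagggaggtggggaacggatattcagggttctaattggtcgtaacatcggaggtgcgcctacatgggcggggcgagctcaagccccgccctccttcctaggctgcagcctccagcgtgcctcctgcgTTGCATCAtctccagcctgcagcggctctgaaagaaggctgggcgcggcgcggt
Slc7a7, chr14:54417895-54418194, minus strand: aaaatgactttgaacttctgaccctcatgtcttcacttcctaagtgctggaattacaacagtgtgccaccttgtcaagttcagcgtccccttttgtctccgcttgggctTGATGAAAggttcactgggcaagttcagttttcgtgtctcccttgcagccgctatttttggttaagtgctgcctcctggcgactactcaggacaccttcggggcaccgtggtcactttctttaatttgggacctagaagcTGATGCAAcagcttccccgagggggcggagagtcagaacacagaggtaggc
Slc7a11, chr3:50443564-50443863, minus strand: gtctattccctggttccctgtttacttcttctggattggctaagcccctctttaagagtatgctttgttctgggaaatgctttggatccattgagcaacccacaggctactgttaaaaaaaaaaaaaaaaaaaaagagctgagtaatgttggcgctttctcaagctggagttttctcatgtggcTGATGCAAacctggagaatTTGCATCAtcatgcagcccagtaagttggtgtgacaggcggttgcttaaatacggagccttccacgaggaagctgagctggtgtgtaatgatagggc
In Slc1a4 the single match runs across the start site from position -4. Slc7a7 holds 2 matches from position -141, the second of which a neighbouring window of the gene also holds, and Slc7a11 holds 2 from position -66 on opposite strands. Of these genes Slc1a4 and Slc7a7 had negative ratios on all 4 arrays, none past the rule, and Slc7a11 was not measured. A match describes letters in a window and shows no binding.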

How the data were processed

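Liver RNA was compared on 4 two-colour arrays. Per the file headers, the deposited scanner files give linear intensity for every spot and dye, processed signals and a log10 ratio of red over green. Agilent Feature Extraction had version 9.5.1.1 there and 9.5.3.1 in the submitters' processing notes. The deposited series table holds a ratio in the columns with positive values and, in those with a minus sign, a score of the same size. Of its values 76.3% to 82.0% lay within 0.006 of red over green processed signal and at most 1.31% of green over red. Its column medians were -0.92, 0.94, -0.88 and 0.88; the sign of the columns with FD in Cy5 was dropped and its meaning stays unknown.

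In R 4.3.3 with limma 3.58.1, mean signals were background-corrected by normexp (offset 50), normalised by loess within arrays (control spots given weight 0), then turned to FD over control. Outlier spots (215 to 257 per array) were left out, and spots of one probe were averaged. Log2 levels came from loess followed by Aquantile normalisation. Of the 95 probes, 77 were named through their accession in RefSeq (GRCm38.p6), the rest by the files. The 1 opposite-strand gene whose name adds letters after the number, Slc7a6os, was left out. Between arrays, turned ratios correlated at 0.86 in the mother and 0.66 in the fetus over all measured genes. Among genes with several measured probes, all probes shared a sign for 7 of 8 in the mother, 8 of 12 in the fetus and 8 of 10 in control level. The steps were tested on simulated data; the offset shrinks ratios of dim spots, so folds are understated there. Bounds for dim probes set the bright group's mean against a floor, per array the dim signal or the weakest signal called above background, whichever was higher. Precision is limited by the number of arrays. Some genes are not reported here by name.

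Named genes are all called members, each family's largest maternal and fetal ratio, a list of well-known carriers, those just inside and outside the rule, and called genes of the other lists. The members and lists were chosen with earlier results of these data known. The alternatives tried were the software's signals, the series table, offset 0, a set local background, median centring, no filter and a stricter filter (10 SD above negative controls), the mean over probes, each array alone and a 1.5-fold threshold.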

Additional observations from a re-analysis of the deposited data

Results flagged for a closer look

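For 8 of the 27 transporters measured in both, every maternal array gave a log2 ratio of one sign and every fetal array the other. How many of all genes show this pattern was not counted, so the number is not shown to be particular to transporters. The differences, mother minus fetus, were 1.21 for Slc6a9, 0.40 for Slc1a5 and 0.38 for Slc6a4, positive in the mother and negative in the fetus. They were -1.41 for Slc6a6, -1.10 for Slc3a1, -0.99 for Slc6a12, -0.23 for Slc7a15 and -0.15 for Slc43a2, negative in the mother and positive in the fetus. None of these differences was tested, because the arrays of a side may share their pools. Those of Slc7a15 and Slc43a2 rest on ratios as small as -0.04 and -0.01 in the mother. Those of Slc1a5 and Slc6a4 rest on maternal ratios as small as 0.01 and 0.04.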

How the results depend on the processing

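The 544 of 623 single values that moved by less than the error between arrays, or kept their call, included all 13 control-level calls, and no mean of a called gene changed sign. The software's signals gave 4 higher and 3 lower in FD mothers, 2 lower in FD fetuses, 9 in the difference and 23 in control level. The series table gave 4, 2 and 9 for the first, the fetal and the difference counts. All genes were also called more often in the software's signals, 4.08% higher and 5.04% lower in FD mothers against 1.54% and 1.87% in the main processing. Shares of all genes were not computed there for the difference and the control level. Nor were they computed for the series table, offset 0, median centring, the mean over probes or either array alone. Offset 0 gave 17 in control level and median centring 0 higher and 0 lower in FD mothers. The mean over probes left 1 lower. The 1.5-fold threshold gave 5 and 5 in FD mothers, 1 higher in FD fetuses and 9 in the difference. In that difference 594 of all 15598 genes were higher and 936 lower. Either array alone gave 2 higher, and 1 to 2 lower, in FD mothers. The added fetal genes were Slc7a9 and Slc7a10, with Slc7a10 at -1.25 and Slc7a9 at -1.29 and -1.71 per array in the software's signals. Both are dim, and Slc7a10 was well above background under FD on 1 fetal array only. The added maternal ones were Slc6a4, Slc6a8, Slc6a9 and Slc1a4. Under median centring one dye orientation of Slc7a2, Slc36a1 and Slc6a6 fell short, with means of 1.45 and -1.05 for the first and last, and the median of all genes moved to -0.11 in the difference and 0.09 in the fetus. The causes were not tested. No paired analysis was possible because the replicate numbers change with the dye orientation, the arrays may share their pools and no test was made. Dim spots and pooled RNA limit these values.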
